A study of Mus musculus with 6 samples.

Results

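The IL-6 family and its STAT3 feedback were followed through 10 genes in heart tissue after myocardial infarction (MI): the cytokines *Il6*, *Il11*, *Lif* and *Osm*, the receptor chains *Il6ra*, *Osmr*, *Lifr* and *Il6st*, the transcription factor *Stat3* and its feedback inhibitor *Socs3*. They were taken by gene symbol from the 17441 genes listed in any library, and all 10 were among the 13120 genes tested. Tissue from below the ligature was collected 3 days after surgery from male, 12-week-old mice, and 2 RNA-seq libraries represented each of 3 groups. WT Sham were wild-type mice given a sham operation, WT MI were wild-type mice with the left coronary artery ligated, and *Card9* KO MI were *Card9* knockout mice with the same ligation. The strains were on a C57BL/6 background and no label restricts the knockout to a cell type. Sham-operated knockout mice were not analysed here. For *Card9* KO MI against WT Sham, genotype and infarction therefore cannot be told apart.

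Cytokines of this family share the signalling chain gp130, encoded by *Il6st*. IL-6 and IL-11 first bind their own receptor chain and then gp130, whereas LIF binds gp130 paired with LIFR and oncostatin M binds gp130 paired with OSMR. The receptor complexes activate JAK kinases, which phosphorylate STAT3; STAT3 then induces target genes that include *Socs3*, whose product binds gp130 and JAKs and shuts the signal down. In the heart the pathway is known for cardiomyocyte survival, hypertrophy and the inflammatory response to injury.

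Promoters are shown for *Socs3*, *Il6* and *Lif*, because these 3 genes were among those called higher after infarction and their upstream windows hold matches to motifs of STAT, NF-kB or AP-1 factors. RefSeq (GRCm38.p6) had a promoter entry for 9 of the 10 genes, with 11 entries in all, and the sequences below were placed on mm9 by an exact match. They run 5′ to 3′ in the direction of the gene, and capitals mark the motif matches. The *Socs3* sequence covers 250 to 86 bases before the RefSeq start and that of *Lif* 250 to 12 bases, each ending before exons annotated in mm9, and that of *Il6* 250 to 1 bases. The mm9 annotation also has a *Socs3* transcript that starts farther upstream, so the *Socs3* sequence lies in an intron of that transcript.
Socs3 (mm9, chr11:117830766-117830930, minus strand): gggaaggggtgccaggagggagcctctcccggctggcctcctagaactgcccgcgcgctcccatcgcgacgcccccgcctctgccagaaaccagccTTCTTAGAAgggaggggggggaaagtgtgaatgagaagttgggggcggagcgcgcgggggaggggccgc
Il6 (mm9, chr5:30339404-30339653, plus strand): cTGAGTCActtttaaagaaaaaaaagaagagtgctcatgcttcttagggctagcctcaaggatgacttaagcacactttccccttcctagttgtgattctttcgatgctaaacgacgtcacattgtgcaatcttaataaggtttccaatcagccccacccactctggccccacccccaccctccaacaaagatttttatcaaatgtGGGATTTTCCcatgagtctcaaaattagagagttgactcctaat
Lif (mm9, chr11:4157321-4157559, plus strand): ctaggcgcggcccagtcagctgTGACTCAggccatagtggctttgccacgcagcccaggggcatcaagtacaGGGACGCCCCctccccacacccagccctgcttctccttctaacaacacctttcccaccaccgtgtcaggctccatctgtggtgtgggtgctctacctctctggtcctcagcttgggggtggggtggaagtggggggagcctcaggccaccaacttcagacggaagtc

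The motifs were searched on both strands in the 250 bases before each RefSeq start: TTCNNNGAA for STAT factors, TGANTCA for AP-1 and the general NF-kB consensus. The *Socs3* window held TTCTTAGAA from 154 to 146 bases before the start, the STAT match in 1 of the 11 entries. *Il6* held GGGATTTTCC from 44 to 35 bases and TGAGTCA from 249 to 243 bases before the start, *Lif* held TGACTCA from 228 to 222 bases and the NF-kB match GGGACGCCCC from 178 to 169 bases, and 1 entry of *Il11* held TGAGTCA from 98 to 92 bases. Among all 32851 promoter entries, 7.02% held the STAT letters, 7.25% an NF-kB match and 6.75% the AP-1 letters, and no match of one motif overlapped that of another in the printed sequences. A match describes letters only and shows no binding.

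Values were FPKM, the fragments per kilobase of transcript relative to all mapped fragments of the library, and a gene that a library did not list was taken as 0. The libraries listed 14935 to 15852 genes, and the spacing of the low values gave an estimated depth of 3011942 to 4276287 fragments. *Card9*, the targeted gene, stood at 0.99 and 1.03 FPKM in WT Sham libraries, 3.39 and 5.08 FPKM in WT MI libraries and 9.85 and 6.94 FPKM in the *Card9* KO MI-labelled libraries. It was not lower in the latter (log2 fold change 0.85, SE 0.23, limma adjusted p = 0.11), so every direction against WT MI rests on the labels. Differences were tested with limma on log2(FPKM + 1) with all 3 groups in one fit, and a gene was called at a Benjamini-Hochberg adjusted p below 0.05 over all 13120 genes. With 2 libraries a group an exact permutation test of one gene cannot go below 0.333, and no label says that the 2 libraries of a group came from separate animals, so the p-values measure the spread between these libraries.

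After infarction of wild-type hearts 7 of the 10 genes were called higher: *Il6*, *Lif*, *Osm*, *Osmr*, *Il6st*, *Stat3* and *Socs3*. Limma called 0 lower, and 1, *Lifr*, at an unadjusted p below 0.05. Over all genes tested, 27.7% were called higher and 9.39% lower in this comparison, and 12.8% were lower at an unadjusted p below 0.05. The 2 WT MI libraries lay above both WT Sham libraries in 9 of the 10 genes and below them in *Lifr*, beside 48.3% and 22.1% of all genes. The median log2 fold change of the 10 genes was 0.84, against 0.19 over all genes tested. *Il6*, *Osm*, *Lif* and *Il11* passed the filter on low values, an FPKM of at least 1 in 2 libraries, only through the infarct libraries. These counts and medians therefore describe the genes and carry no test, and the p-values of those genes against WT Sham are descriptive only. The scaling of the libraries bears on the directions: of all calls 74.7% were increases in the deposited values, 53.9% after upper-quartile scaling and 47.3% after quantile normalization, and the median of all genes moved from 0.19 to −0.0034 and −0.090. For the *Card9* KO MI-labelled libraries against WT Sham these shares were 70.9%, 52.3% and 44.4%, and the medians 0.24, 0.019 and −0.10. Relative to the deposited median, the 7 genes called in WT MI lay between 0.15 (*Il6st*) and 2.51 (*Il6*) higher on the log2 scale.

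**Figure D1:**
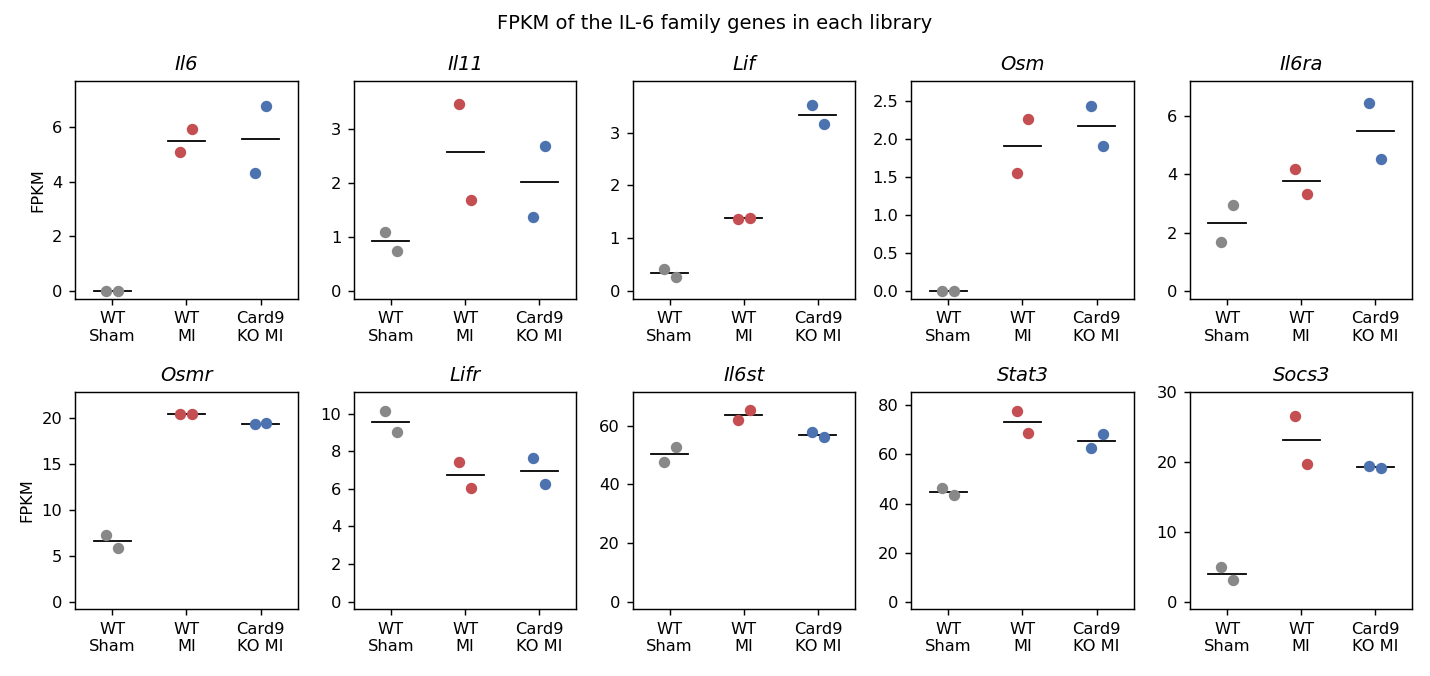
FPKM of the 10 genes (y axes, each panel with its own scale) in the 2 libraries of each group (x axes); points are libraries and lines are group means. *Il6* and *Osm*, not listed in either WT Sham library, are drawn at 0 there, and *Lifr* is the gene whose infarct libraries lie below WT Sham. *Lif* is the ligand whose values in both *Card9* KO MI-labelled libraries lie above its own values in all other libraries.

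Of the ligands, *Il6* (NCBI gene 16193; mm9 chromosome 5, 30339701 to 30346508, plus strand) encodes the founding cytokine of the family. It was not listed in either WT Sham library, so taken as 0, and reached 5.08 and 5.94 FPKM in WT MI and 4.34 and 6.79 FPKM in the *Card9* KO MI-labelled libraries. All 4 infarct libraries were thus above all sham libraries, while the 2 infarct groups overlapped. For a transcript of its length 3 fragments were worth an FPKM of 0.645 to 0.916, and the infarct values rest on about 20.2 to 30.3 fragments. WT MI exceeded WT Sham by 2.70 on the log2(FPKM + 1) scale (SE 0.23, limma adjusted p = 0.000157). This size ran from 1.07 to 5.81 with 5 or 0.1 added in place of 1. Both sham values, taken as 0, add no spread between replicates, so the p-value against WT Sham is descriptive only. Between the infarct groups the log2 difference was −0.010 (95% interval −0.54 to 0.52, limma adjusted p = 0.99).

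*Osm* (NCBI gene 18413; chromosome 11, 4136423 to 4141029, plus strand) encodes oncostatin M, a cytokine made largely by macrophages and neutrophils. Like *Il6*, it was missing from both WT Sham lists and taken as 0, and it reached 1.56 and 2.27 FPKM in WT MI and 2.44 and 1.91 FPKM in the *Card9* KO MI-labelled libraries. The infarct groups again overlapped with each other and not with WT Sham. The log2 difference was 1.53 between WT MI and WT Sham (SE 0.24, limma adjusted p = 0.0021) and 0.13 between the infarct groups (95% interval −0.42 to 0.68, adjusted p = 0.81). With 5 or 0.1 added in place of 1 the former ran from 0.47 to 4.31. As for *Il6*, sham values taken as 0 add no spread between replicates, so the p-value against WT Sham is descriptive only.

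*Lif* (NCBI gene 16878; chromosome 11, 4157560 to 4172517, plus strand), which encodes leukemia inhibitory factor, starts 16.5 kb after the end of *Osm* on the same strand. The WT Sham libraries held 0.41 and 0.26 FPKM, the WT MI libraries 1.36 and 1.39 FPKM, and the *Card9* KO MI-labelled libraries 3.52 and 3.16 FPKM. The 3 groups did not overlap and stood in that order. The ratio of group means was 4.10 for WT MI over WT Sham (log2 fold change 0.83, SE 0.21, limma adjusted p = 0.016) and 2.43 between the infarct groups. This last difference did not pass the test (log2 fold change 0.87, 95% interval 0.39 to 1.35, unadjusted p = 0.0032, adjusted p = 0.089). The call against WT Sham was lost without WT Sham replicate 2, WT MI replicate 1 or WT MI replicate 2 (adjusted p = 0.067 each) and with quantile normalization (log2 fold change 0.39, adjusted p = 0.17). About 3.15 to 5.18 fragments lay behind the sham values, 22.0 and 21.8 behind WT MI, and 60.6 and 52.3 behind the *Card9* KO MI-labelled libraries.

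*Il11* (NCBI gene 16156; chromosome 7, 4724669 to 4734460, minus strand) encodes interleukin 11, a cytokine known for its action on fibroblasts. Its FPKM was 1.10 and 0.75 in the WT Sham libraries, 3.47 and 1.68 in the WT MI libraries and 1.37 and 2.68 in the *Card9* KO MI-labelled libraries. Every infarct library was above both sham libraries, and the replicates within each infarct group were farther apart than the means of the infarct groups. Only about 4.33 and 2.83 fragments lay behind the sham values, and 7.35 to 17.5 behind the infarct values. The log2 fold change of WT MI over WT Sham was 0.85 (SE 0.32, limma adjusted p = 0.072) and passed the threshold only without WT MI replicate 2 (1.22, adjusted p = 0.046). Between the infarct groups it was −0.23 (95% interval −0.97 to 0.52, adjusted p = 0.74).

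Among the receptor chains, *Osmr* (NCBI gene 18414; chromosome 15, 6763577 to 6824313, minus strand), the specific chain of the oncostatin M receptor, gave the largest log2 fold change of the 4 receptors after infarction. The WT Sham libraries held 7.25 and 5.87 FPKM, the WT MI libraries 20.40 and 20.35 FPKM, and the *Card9* KO MI-labelled libraries 19.26 and 19.42 FPKM. Infarct and sham libraries were far apart, and replicates were nearly equal within the infarct groups. WT MI was 3.11-fold higher than WT Sham (log2 fold change 1.51, SE 0.13, limma adjusted p = 0.000173), and the infarct groups differed by −0.072 (95% interval −0.38 to 0.23, adjusted p = 0.81).

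*Lifr* (NCBI gene 16880; chromosome 15, 7079559 to 7147489, plus strand), the LIF receptor chain, lies 255 kb from *Osmr*, and its values stood the other way. Its FPKM was 10.13 and 9.02 in the WT Sham libraries, 7.45 and 6.03 in the WT MI libraries and 7.65 and 6.25 in the *Card9* KO MI-labelled libraries. Every infarct library was below both sham libraries, and the infarct groups overlapped. The log2 fold change against WT Sham was −0.45 (SE 0.17, limma adjusted p = 0.065) in WT MI and −0.42 (adjusted p = 0.071) in the *Card9* KO MI-labelled libraries. Neither passed the threshold as deposited. Both did after upper-quartile scaling (−0.66, adjusted p = 0.016, and −0.65, adjusted p = 0.012) and after quantile normalization (−0.72, adjusted p = 0.012, and −0.76, adjusted p = 0.0063).

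*Il6ra* (NCBI gene 16194; chromosome 3, 89673246 to 89717084, minus strand) encodes the chain that binds IL-6. The WT Sham libraries held 1.69 and 2.94 FPKM, the WT MI libraries 4.19 and 3.32 FPKM, and the *Card9* KO MI-labelled libraries 6.42 and 4.53 FPKM. The groups did not overlap, but replicates were widely spread. WT MI against WT Sham did not pass the test (log2 fold change 0.54, SE 0.25, limma adjusted p = 0.13), nor did the infarct groups against each other (0.44, 95% interval −0.14 to 1.01, adjusted p = 0.38). The *Card9* KO MI-labelled libraries were 2.37-fold higher than WT Sham (log2 fold change 0.98, SE 0.25, adjusted p = 0.013), a call lost without WT Sham replicate 1 (0.70, adjusted p = 0.070), without *Card9* KO MI replicate 1 (0.76, adjusted p = 0.095) and with quantile normalization (0.55, adjusted p = 0.099).

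*Il6st* (NCBI gene 16195; chromosome 13, 113265216 to 113297068, plus strand), the gene of the shared chain gp130, was the most abundant of the receptors. Its FPKM was 47.66 and 52.71 in the WT Sham libraries, 61.85 and 65.35 in the WT MI libraries and 57.77 and 56.14 in the *Card9* KO MI-labelled libraries. WT MI was above WT Sham without overlap, by 1.27-fold (log2 fold change 0.34, SE 0.10, limma adjusted p = 0.029). This call depended on the settings: it was lost with upper-quartile scaling (0.12, adjusted p = 0.39), quantile normalization (0.16, adjusted p = 0.28) and eBayes without trend (adjusted p = 0.078), and without WT Sham replicate 1 (0.27, adjusted p = 0.14), WT MI replicate 1 (0.38, adjusted p = 0.087) or WT MI replicate 2 (0.30, adjusted p = 0.14). Against WT Sham the *Card9* KO MI-labelled libraries gave 0.18 (adjusted p = 0.16), which turned to −0.076 with upper-quartile scaling, and against WT MI −0.16 (95% interval −0.38 to 0.069, adjusted p = 0.42).

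*Stat3* (NCBI gene 20848; chromosome 11, 100746412 to 100800854, minus strand) encodes the transcription factor that these receptors activate. The WT Sham libraries held 46.19 and 43.50 FPKM, the WT MI libraries 77.53 and 68.68 FPKM, and the *Card9* KO MI-labelled libraries 62.66 and 68.39 FPKM. Both infarct groups were above WT Sham without overlap. WT MI was 1.63-fold higher (log2 fold change 0.69, SE 0.10, limma adjusted p = 0.0019). In the *Card9* KO MI-labelled libraries the level was 1.46-fold that of WT Sham (0.54, adjusted p = 0.0041), which with upper-quartile scaling was 0.28 (adjusted p = 0.062). The infarct groups differed by −0.15 (95% interval −0.40 to 0.088, adjusted p = 0.46). In mm9 the end of *Stat3* overlaps that of *Stat5a* (100720665 to 100746483, plus strand), and whether counting used strand is not given in the sources used here, so some fragments could belong to either gene. *Stat5a* itself was 10.76 and 9.95 in WT Sham and 6.31 to 8.39 in the infarct libraries.

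*Socs3* (NCBI gene 12702; chromosome 11, 117827393 to 117831361, minus strand), the feedback inhibitor, stood at 4.94 and 3.11 FPKM in WT Sham libraries, 26.66 and 19.66 FPKM in WT MI libraries and 19.40 and 19.07 FPKM in the *Card9* KO MI-labelled libraries. All infarct libraries were several times the sham level, and the lowest WT MI library lay just above the *Card9* KO MI-labelled libraries. WT MI was 5.75-fold higher than WT Sham (log2 fold change 2.27, SE 0.21, limma adjusted p = 0.000213). The difference between the infarct groups was −0.24 (95% interval −0.72 to 0.24, adjusted p = 0.57). Its promoter, printed above, is the window with the STAT letters.

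**Figure D2:**
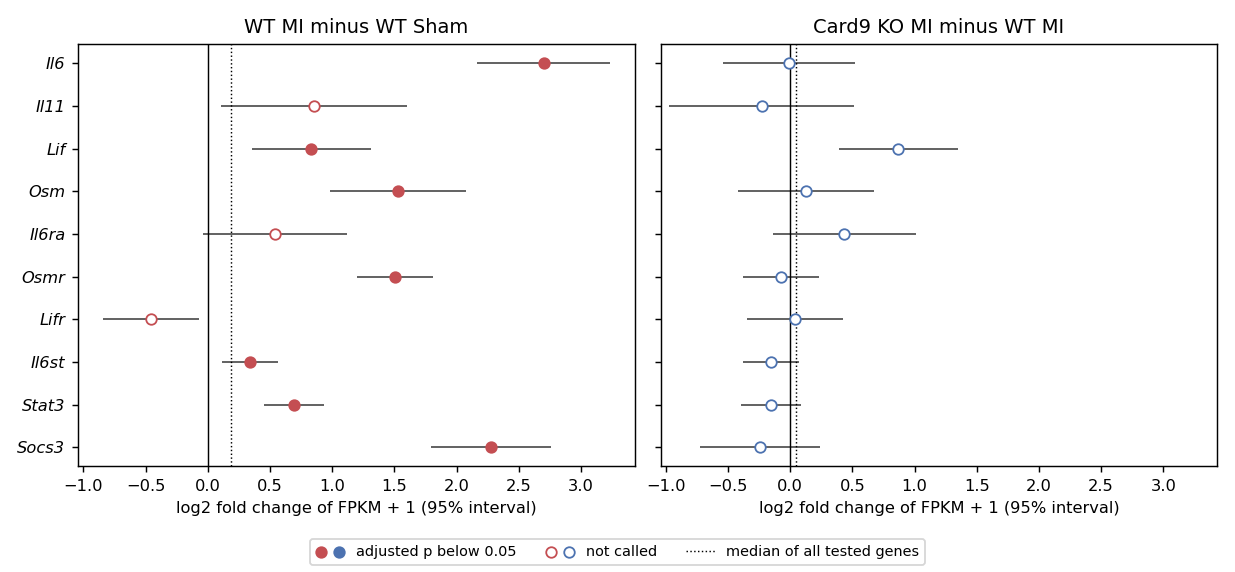
Log2 fold change of FPKM + 1 (x axes) with its 95% interval for the 10 genes (rows), WT MI minus WT Sham on the left and the *Card9* KO MI-labelled libraries minus WT MI on the right; filled points passed an adjusted p below 0.05 and the dotted line is the median of all tested genes. On the left 7 points are filled and on the right none, and *Lif* is the gene whose right-hand interval lies above 0.

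Between the 2 infarct groups limma called 0 of the 10 genes, beside 0.816% of all genes called higher and 0.587% lower. At an unadjusted p below 0.05, 1 gene was higher, *Lif*, beside 11.5% of all genes, and 0 were lower, beside 8.57%. The libraries did not overlap in 2 genes that were higher, *Lif* and *Il6ra*, and 4 that were lower, *Osmr*, *Il6st*, *Stat3* and *Socs3*, beside 30.8% and 21.9% of all genes. The median log2 fold change was −0.041, against 0.045 over all genes. The intervals leave room for differences of up to 1.35 for *Lif* and −0.97 for *Il11*, and the narrowest, for *Il6st* and *Stat3*, ran from −0.38 to 0.069 and from −0.40 to 0.088. Summed macrophage and fibroblast markers were higher in the *Card9* KO MI-labelled libraries and summed neutrophil markers were lower (values below). Their part in the values of the 10 genes was not tested.

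The *Card9* KO MI-labelled libraries shared the sham libraries with WT MI as their reference, and 7 of the 10 genes were called higher in them too, beside 34.8% of all genes called higher and 14.3% lower. These were *Il6* (log2 difference 2.69), *Lif* (1.70, or 9.97-fold), *Osm* (1.66), *Il6ra* (0.98), *Osmr* (1.43), *Stat3* (0.54) and *Socs3* (2.03), at adjusted p-values between 8.8e-05 and 0.013. *Il11* was at 0.62 (adjusted p = 0.14). Limma called 0 of the 10 genes lower, and 1, *Lifr*, at an unadjusted p below 0.05, beside 16.7% of all genes. As in WT MI, both libraries lay above WT Sham in 9 genes and below it in *Lifr*, beside 51.6% and 24.5% of all genes. Here too *Il6*, *Osm*, *Lif* and *Il11* passed the filter on low values only through the infarct libraries. These counts and the p-values of those genes therefore describe the genes and carry no test. *Il6ra* was thus called here and not in WT MI, and *Il6st* in WT MI and not here. The corresponding differences between the infarct groups, 0.44 and −0.16, did not pass the test.

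FPKM is per transcript length, so levels could be ordered between genes. In WT Sham the order of FPKM was *Il6st*, *Stat3*, *Lifr*, *Osmr*, *Socs3*, *Il6ra*, *Il11* and *Lif*, each apart from its neighbour in both libraries, followed by *Il6* and *Osm*, taken as 0. In WT MI *Stat3* stood first and *Il6st* second, then *Socs3* and *Osmr*, whose ranges overlapped, and *Lifr* and *Il6*; *Il6ra*, *Il11* and *Osm* overlapped in turn, and *Lif* was lowest. In the *Card9* KO MI-labelled libraries the order was *Stat3*, *Il6st*, *Osmr* with *Socs3*, then *Lifr*, *Il6* and *Il6ra* with overlapping ranges, *Lif*, and *Osm* with *Il11*. *Socs3* and *Lifr* changed places: mean FPKM of *Lifr* was 9.57 against 4.03 for *Socs3* in WT Sham, and 6.74 against 23.2 in WT MI.

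In bulk tissue, fewer cells of a type and less RNA per cell cannot be told apart, and markers of several cell types moved with infarction. Summed FPKM of 10 listed neutrophil markers was 5.40 to 7.87 in WT Sham libraries, 227.6 and 98.3 in WT MI libraries, and 61.8 and 48.5 in the *Card9* KO MI-labelled libraries; *Ly6g*, *Elane* and *Camp* were not listed in any library. Against WT Sham all 7 neutrophil markers tested were called higher in WT MI, beside 27.7% of all genes. This count describes them only, since *Mmp8*, *Retnlg*, *Il1r2*, *S100a8* and *S100a9* passed the filter on low values only through the infarct libraries. Between the infarct groups all 7 had a negative difference that was not called, with a median of −0.64. The 12 macrophage markers summed to 364.6 to 423.8 in WT Sham libraries, 1461 and 1854 in WT MI libraries, and 2945 and 2140 in the *Card9* KO MI-labelled libraries. In WT MI 11 were called higher, beside 27.7% of all genes. Between the infarct groups 10 had a positive, uncalled difference. *Cd163* (−1.03, limma adjusted p = 0.094) and *Itgam* (−0.10, adjusted p = 0.85) had a negative, uncalled one. The 8 fibroblast markers summed to 489.1 to 511.7, 1479 and 2003, and 3188 and 3059, with 6 called higher in WT MI, beside 27.7% of all genes. Between the infarct groups 6 had a positive difference. Of these 3 were called, the matrix genes *Col1a1*, *Col1a2* and *Postn*, beside 0.816% of all genes. *Pdgfra* (−0.52, limma adjusted p = 0.094) and *Dcn* (−0.16, adjusted p = 0.54) had a negative, uncalled difference. The 10 cardiomyocyte markers, all listed in every library, summed to 47680 and 48880 in WT Sham and 26450 to 31030 in the infarct libraries. In WT MI 7 of them were called lower, beside 9.39% of all genes. *Nppa*, the atrial natriuretic peptide gene, was called higher, at 325.6 and 78.20 FPKM in WT Sham libraries and 757.6 and 838.1 FPKM in WT MI libraries (2.31, limma adjusted p = 0.012). Sums over 6 endothelial markers were 277.9 to 344.0 and over 7 T and B cell markers 4.24 to 6.30 across the 6 libraries. The 4 listed adipocyte markers summed to 468.7 to 628.4, and the 4 listed erythroid markers to 383.7 to 877.5 in WT Sham and 808.8 to 2392 in the infarct libraries. The part of these shifts in the values of the 10 genes was not tested.

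**Figure D3:**
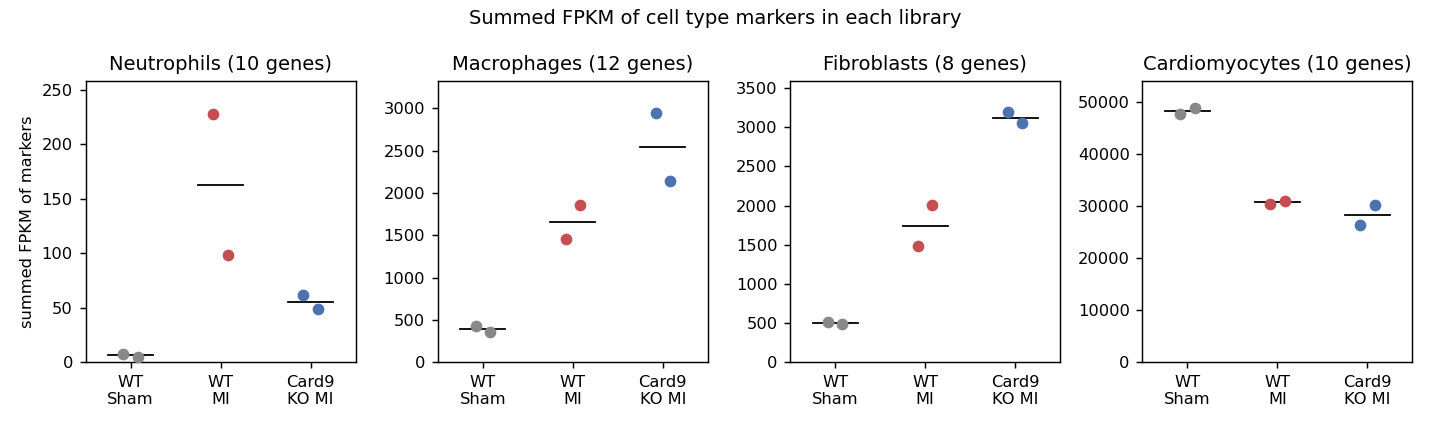
Summed FPKM (y axes) of the listed markers of neutrophils, macrophages, fibroblasts and cardiomyocytes in the 2 libraries of each group (x axes); points are libraries and lines are group means. Neutrophil sums are highest in WT MI, macrophage and fibroblast sums are highest in the *Card9* KO MI-labelled libraries, and cardiomyocyte sums are highest in WT Sham.

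Of 43 other genes of the pathway, 41 were listed and 36 tested, and against WT Sham 19 were called higher and 3 lower in WT MI, beside 27.7% and 9.39% of all genes. After upper-quartile scaling and also after quantile normalization these counts were 16 and 5. *Clcf1*, *Ebi3*, *Hp* and *Saa3* are among those that passed the filter on low values only through the infarct libraries, so these counts describe the genes and carry no test. Among the other ligands, *Clcf1*, which encodes a cytokine acting on gp130, was higher. *Clcf1* stood at 0.79 and 1.66 FPKM in WT Sham libraries, 4.04 and 4.79 FPKM in WT MI libraries and 7.30 and 3.95 FPKM in the *Card9* KO MI-labelled libraries (WT MI against WT Sham 1.31, limma adjusted p = 0.011). *Ctf1*, the cardiotrophin gene, was not called (−0.54, adjusted p = 0.10), and *Ebi3*, a subunit of IL-27, was called only against WT Sham in the *Card9* KO MI-labelled libraries (1.04, adjusted p = 0.028). *Ctf2*, *Cntf* and *Il27* were under the filter and *Il31* was not listed in any library.

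Of the other receptors *Cntfr*, *Il27ra* and *Il11ra1* were tested, and *Il31ra* was under the filter. *Il11ra1*, the specific chain for IL-11, was called lower in WT MI (20.00 and 19.94, against 25.12 and 25.75 in WT Sham; −0.33, limma adjusted p = 0.041) and in the *Card9* KO MI-labelled libraries (18.66 and 17.29; −0.48, adjusted p = 0.0073). It has near-identical copies in the mouse genome, so its value is uncertain. *Adam10* and *Adam17*, proteases that shed the IL-6 receptor, were both higher in WT MI (0.77, adjusted p = 0.0017, and 0.64, adjusted p = 0.0044).

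Of the kinases, STATs and adaptor, *Jak2* was higher in WT MI (0.55, limma adjusted p = 0.025), and *Stat5b* (−0.33, adjusted p = 0.047) and *Ptpn11*, the phosphatase SHP2 that docks on gp130 (−0.39, adjusted p = 0.013), were lower. *Jak1*, *Tyk2* and *Stat5a* were not called in that comparison. Of 5 other inhibitors (*Socs1*, *Socs2*, *Cish*, *Pias3*, *Ptpn2*) limma called 0 in WT MI, beside 27.7% of all genes called higher and 9.39% lower. The lowest adjusted p was that of *Socs2* (0.43, adjusted p = 0.058). *Socs1*, the relative of *Socs3*, stood at 1.57 and 1.09 FPKM in WT Sham libraries and at 1.78 and 0.63 FPKM in WT MI libraries. In the *Card9* KO MI-labelled libraries against WT Sham, *Jak2*, *Tyk2*, *Socs2* and *Pias3* were called higher and *Stat5a*, *Stat5b* and *Ptpn11* lower. Of these only *Ptpn11* kept its call under every alternative run. The highest adjusted p was 0.14 for *Jak2*, 0.083 for *Tyk2*, 0.080 for *Socs2*, 0.15 for *Pias3*, 0.12 for *Stat5a* and 0.066 for *Stat5b*, and it was 0.17 for *Ebi3*. The calls of *Clcf1*, *Il11ra1*, *Jak2*, *Stat5b* and *Ptpn11* in WT MI were each lost under at least 1 alternative, with a highest adjusted p of 0.069 for *Clcf1*, 0.14 for *Il11ra1*, 0.18 for *Jak2* and *Stat5b*, and 0.076 for *Ptpn11*, and kept their direction.

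Of 17 genes known to respond to STAT3, 15 were tested, and 14 were called higher after infarction of wild-type hearts, all but *Lbp*, beside 27.7% of all genes. The calls of *Mcl1*, *Pim1* and *Junb* were lost under at least 1 alternative, with a highest adjusted p of 0.52, 0.11 and 0.058. The median log2 fold change of the 15 tested genes was 1.68, against 0.19 over all genes. Of the 15, 13 were called higher in the *Card9* KO MI-labelled libraries against WT Sham, all but *Lbp* and *Pim1*, beside 34.8% of all genes. *Mcl1* lost its call there too (highest limma adjusted p 0.72). *Hp* and *Saa3* passed the filter on low values only through the infarct libraries, and the list was chosen with earlier results of these data known. These counts and the median therefore describe the genes and carry no test. *Timp1*, a metalloproteinase inhibitor, went from 5.36 and 5.24 FPKM in WT Sham libraries to 299.2 and 253.8 FPKM in WT MI libraries (5.46, limma adjusted p = 9.9e-07). *Il4ra*, a cytokine receptor, had 5.13 and 3.25, and 32.00 and 30.99 (2.67, adjusted p = 7e-05), and *Myc* 4.74 and 3.43, and 21.49 and 21.35 (2.15, adjusted p = 9.9e-05). Most of these genes also answer to other factors, and the list holds genes that neutrophils, macrophages or fibroblasts express. *Fgg* was under the filter and *Reg3b* was not listed in any library.

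Between the infarct groups the same list had 2 genes called lower, *Lcn2* and *Serpina3n*, beside 0.587% of all genes, and none higher, with 0 of the 15 at an unadjusted p below 0.05 in that direction, beside 11.5% of all genes. At that unadjusted p 4 were lower, these 2 with *Timp1* and *Bcl2l1*, beside 8.57%. The libraries did not overlap in 8 genes that were lower and 1 that was higher, beside 21.9% and 30.8%. No other of the 36 tested pathway genes was called. *Lcn2*, encoding the siderophore-binding protein lipocalin 2, stood at 1.90 and 3.17 FPKM in WT Sham libraries, 268.8 and 203.9 FPKM in WT MI libraries and 6.98 and 7.27 FPKM in the *Card9* KO MI-labelled libraries (infarct groups −4.86, limma adjusted p = 0.000201). *Serpina3n*, an acute-phase protease inhibitor, had 7.36 and 5.83, 116.5 and 141.0, and 32.47 and 35.68 (−1.88, adjusted p = 0.0042). These values stood beside a list median of −0.16, against 0.045 over all genes, and 12 of 15 genes had a negative and 3 a positive difference. *Hp* (−0.80, limma adjusted p = 0.32), *Bcl2l1* (−0.29, adjusted p = 0.21), *Timp1* (−0.34, adjusted p = 0.19), *Il4ra* (−0.13, adjusted p = 0.74), *Myc* (−0.16, adjusted p = 0.63) and *Bcl3* (0.12, adjusted p = 0.77) were not called. *Lcn2* and *Serpina3n* are among the genes the study picked on these libraries, so their values here are not independent evidence. Summed neutrophil markers moved the same way, at 227.6 and 98.3 FPKM in WT MI libraries against 61.8 and 48.5, and their part in these values was not tested. The largest parts of the WT MI sums were *S100a9* (94.04 and 39.24) and *S100a8* (68.91 and 25.26). Over the 7 markers tested, the ratio of means between the infarct groups ran from 0.179 (*Il1r2*) to 0.64 (*Mmp8*). *Saa3*, an acute-phase gene, differed widely between replicates, at 44.26 and 5.76 in the *Card9* KO MI-labelled libraries.

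**Figure D4:**
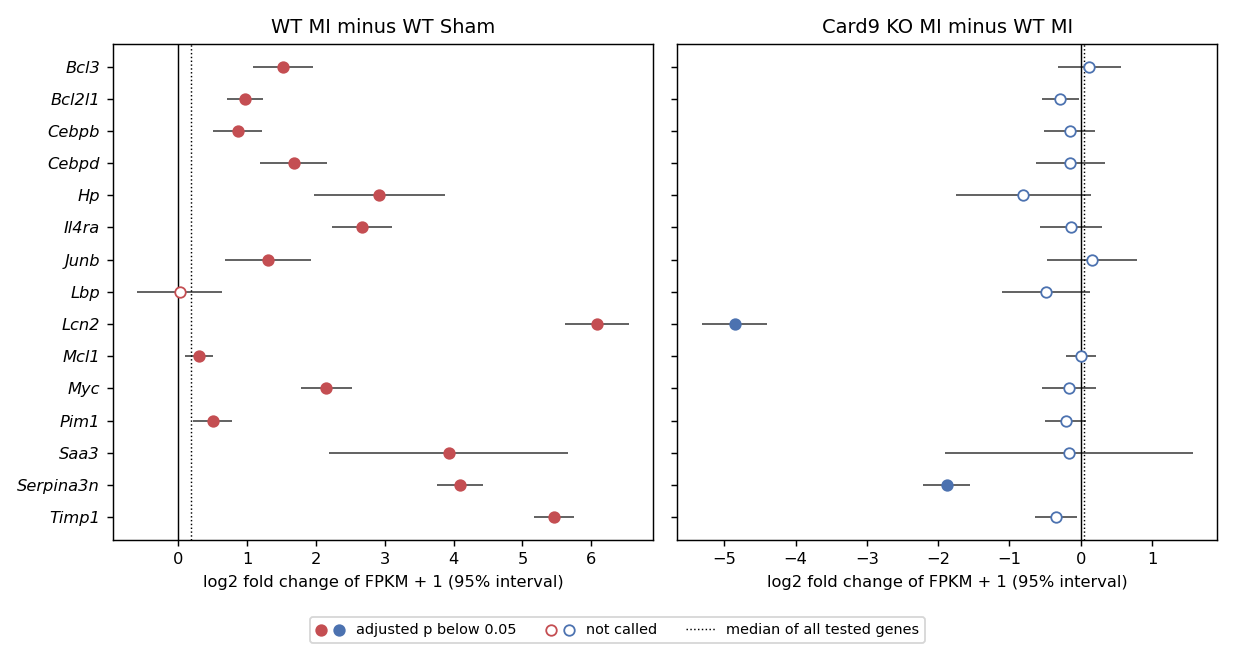
Log2 fold change of FPKM + 1 (x axes, each panel with its own scale) with its 95% interval for the 15 tested STAT3-responsive genes (rows), WT MI minus WT Sham on the left and the *Card9* KO MI-labelled libraries minus WT MI on the right; filled points passed an adjusted p below 0.05 and the dotted line is the median of all tested genes. On the left 14 points are filled, and on the right *Lcn2* and *Serpina3n*, both far below 0.

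Likeness of profile was measured as the root mean square distance between log2(FPKM + 1) values over the 6 libraries, each gene centred on its own mean, among genes with a mean FPKM of at least 5. Nearest to *Socs3* were *Tnfrsf23* (0.0788), *Fstl3* (0.0864) and *Psat1* (0.108), and *Fstl3* stood at 4.70 and 2.87 FPKM in WT Sham libraries, 25.59 and 17.07 FPKM in WT MI libraries and 19.76 and 16.12 FPKM in the *Card9* KO MI-labelled libraries. Nearest to *Osm* were *Dnmt1* (0.073), *Ptprn* (0.0775) and *Ugdh* (0.0788). For *Il11* the nearest genes were farther away: *Scd1* (0.134), *Fam166a* (0.159) and *Rrp12* (0.174). All of these share with the 3 genes a gap between infarct and sham libraries. *Osm* and *Il11* themselves lay below a mean FPKM of 5, where the 1 added to FPKM compresses a change. With 5 or 0.1 added, the log2 difference of *Osm* between WT MI and WT Sham ran from 0.47 to 4.31. The neighbours therefore describe this scale only, and likeness with other values added was not measured.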

How the data were processed

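RNA from heart tissue of 3 groups, with 2 libraries each, was sequenced. Per the labels and the study's methods, the authors took RNA with TRIzol, selected poly(A) RNA on oligo(dT) beads, built TruSeq libraries, sequenced them on an Illumina HiSeq and mapped reads to mm9 with BWA and Bowtie2. The deposited values are FPKM per NCBI gene number, to 2 decimals, for genes above 0. The gene annotation and the use of strand are not given in the sources used here. A large change of abundant genes shifts all other FPKM values of a library.

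Symbols came from RefSeq GRCm38.p6, used for names only (17390 of 17441 genes matched), and positions from the GENCODE annotation of mm9. Genes reaching 1 FPKM in 2 or more libraries were tested with limma 3.58.1 (R 4.3.3; lmFit, eBayes with trend) on log2(FPKM + 1), 3 groups in one fit, with Benjamini-Hochberg adjustment. This scale understates the change of low genes. The study's own screen gives no p-value, so limma stood in for it. Estimated fragments cover counting error only; 68.6% to 71.8% of low values came out whole within 0.15, so counts were not rebuilt. The fit was tested on simulated data with known changes.

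Members, lists and alternatives were chosen with earlier results of these data known. Named genes are the members, *Card9*, the genes of the pathway and marker lists, and the 3 nearest profiles of *Osm*, *Il11* and *Socs3*; some genes of the pathway lists are not reported here. Alternatives were other pseudocounts, filters and scalings, a fit of 2 groups, a replicate block, eBayes without trend, and each library left out in turn.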

Additional observations from a re-analysis of the deposited data

How the results depend on the processing

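For each comparison 13 alternatives were run. Of 125 single-gene values each, 111 in WT MI against WT Sham, 116 between the infarct groups and 117 for the *Card9* KO MI-labelled libraries against WT Sham kept their direction and side of the threshold, and of 26 counts of called genes in each comparison 25 stayed within 1.5 times the reported count. The number of the 10 genes called in WT MI against WT Sham was 7, and 4 with a mean FPKM of at least 5, a filter that leaves 5 of the 10 genes; for the *Card9* KO MI-labelled libraries against WT Sham it was 7, and 3 with that filter. Between the infarct groups it was 0, and 1 with 5 added to FPKM (*Lif*, 0.39, limma adjusted p = 0.0495). In WT MI against WT Sham 6 genes were called higher and 1, *Lifr*, lower after upper-quartile scaling, and 5 and 1 after quantile normalization. For the *Card9* KO MI-labelled libraries against WT Sham both scalings gave 6 higher and 1, *Lifr*, lower. With each library left out in turn the counts ran from 5 to 6, from 6 to 7 and from 0 to 0, and those of the other pathway genes from 15 to 18, from 21 to 24 and from 2 to 2. Between the infarct groups the log2 fold change of 4 genes near 0 took both signs when 1 library was left out: *Il6* ran from −0.28 to 0.26, *Il11* from −0.60 to 0.14, *Osm* from −0.048 to 0.31 and *Lifr* from −0.094 to 0.17. *Lifr* also turned under quantile normalization (−0.041). Against WT Sham, *Il6st* in the *Card9* KO MI-labelled libraries turned under upper-quartile scaling (−0.076). Where no value above shows it, the cause was not tested.

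Replicate numbers did not pair the libraries (correlation of deviations 0.00244, −0.00828 and 0.0204). With the replicate block 8, 8 and 0 of the 10 genes and 21, 27 and 2 of the other pathway genes were called, with *Lifr* added in both comparisons with WT Sham (adjusted p = 0.045 and 0.048).

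Over all genes, calls between the infarct groups depended most on the settings: 107 higher and 77 lower, against 7 and 5 with no filter, 47 and 33 with 0.1 added, 200 and 112 with 5 added, 69 and 32 with only the 2 groups, 45 and 26 with the replicate block, 40 and 18 without trend, 148 and 136 with a mean FPKM of at least 5, and 3 to 11 and 5 to 9 with 1 library left out. In WT MI against WT Sham the split was 3637 and 1232, against 2576 and 2202 under upper-quartile scaling, 2198 and 2447 under quantile normalization, and 2256 to 2994 and 627 to 839 with 1 library left out. For the *Card9* KO MI-labelled libraries against WT Sham it was 4569 and 1875, against 3202 and 2921, 2755 and 3444, and 3209 to 3886 and 1256 to 1618. The ligands lie close to the depth limit, where few fragments carry a value.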
